A study of Mus musculus with 11 samples.

Results

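Evx2, Lnp, Mtx2, Hnrnpa3, Atf2, Chn1, Agps and Nfe2l2 are the genes that flank the HoxD cluster on mouse chromosome 2, and their read counts were followed in 11 RNA-seq libraries of embryonic forelimb buds. The 8 genes were taken by name from a table of 47517 gene names, and all 8 were present. Of them, 7 had enough reads to be tested among 15821 genes, and Evx2 did not. The libraries came from forelimb buds of C57BL/6 embryos at E10.5, prepared from total RNA after ribosomal RNA depletion. Controls (n = 5) were Gmnn +/f; Prx-Cre and mutants (n = 6) were Gmnn f/f; Prx-Cre, so that both groups carried the Cre transgene and at least 1 floxed allele. Gmnn encodes Geminin, which restrains DNA replication licensing, and Prx-Cre expresses Cre recombinase in limb bud mesenchyme and not in every cell type of the bud. By its title, the study is about the regulation of Hox genes in the limb. The question here was whether the flanking genes follow the HoxD genes across libraries and between genotypes.

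HoxD genes are transcription factor genes that pattern the limb along its length. Their enhancers lie in the gene deserts on either side of the cluster. The centromeric side, beyond Hoxd13, Evx2 and Lnp, is known for enhancers of the digit phase, and the telomeric desert beyond Hoxd1 and Mtx2 for enhancers of the early limb bud. Evx2 and Lnp are known to share digit expression with the 5′ HoxD genes, whereas the other genes of the set are better known for functions in many cell types. In bulk tissue such as this, fewer cells that express a gene and less RNA per cell cannot be told apart.

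The 8 genes lie on both sides of the cluster, which spans 74668310 to 74765142 on chromosome 2 (mm10) from the start of Hoxd13 to the end of Hoxd1. On the centromeric side, all on the minus strand, are Evx2 (74652991 to 74659557), Lnp (74520291 to 74579435), Atf2 (73816509 to 73892639) and Chn1 (73610660 to 73775346). Their distances from the cluster are 8.75, 88.9, 775.7 and 893.0 kb. On the telomeric side are Mtx2 (74825803 to 74878431, plus strand), Hnrnpa3 (75659261 to 75669407, plus), Nfe2l2 (75675513 to 75704641, minus) and Agps (75832177 to 75931350, plus). Their distances are 60.7, 894.1, 910.4 and 1067 kb. Of the exon bases of Chn1, 14.6% are shared with the antisense genes Chn1os1 and Chn1os3. By the counting tool's default, without regard to strand, reads over such bases go to neither gene. The share was 2.04% for Atf2 and 1.06% for Hnrnpa3, and no base was shared for the other 5.

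The promoters of Evx2, Lnp, Mtx2 and Atf2 are shown because they are the nearest neighbours of the cluster and the genes with the lowest p-values between genotypes, to show how they differ in base composition. Each runs from 250 bases before to 50 bases after the start, 5′ to 3′ on the gene's strand, from RefSeq (GRCm38.p6), with every CpG dinucleotide in capitals. The coordinates are chr2:74659508-74659807 for Evx2, chr2:74578899-74579198 for Lnp, chr2:74825562-74825861 for Mtx2 and chr2:73892590-73892889 for Atf2.
Evx2: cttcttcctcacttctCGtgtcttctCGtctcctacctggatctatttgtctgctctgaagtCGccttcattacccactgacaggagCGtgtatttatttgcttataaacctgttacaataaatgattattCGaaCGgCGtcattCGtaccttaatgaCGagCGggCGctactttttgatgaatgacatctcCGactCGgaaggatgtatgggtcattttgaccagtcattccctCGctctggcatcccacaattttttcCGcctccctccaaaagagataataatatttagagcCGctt
Lnp: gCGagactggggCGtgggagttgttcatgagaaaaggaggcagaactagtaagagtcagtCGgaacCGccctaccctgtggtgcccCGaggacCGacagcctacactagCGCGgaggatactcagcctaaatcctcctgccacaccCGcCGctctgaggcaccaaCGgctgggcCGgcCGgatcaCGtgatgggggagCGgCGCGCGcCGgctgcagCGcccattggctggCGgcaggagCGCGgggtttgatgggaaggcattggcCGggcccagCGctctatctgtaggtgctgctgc
Mtx2: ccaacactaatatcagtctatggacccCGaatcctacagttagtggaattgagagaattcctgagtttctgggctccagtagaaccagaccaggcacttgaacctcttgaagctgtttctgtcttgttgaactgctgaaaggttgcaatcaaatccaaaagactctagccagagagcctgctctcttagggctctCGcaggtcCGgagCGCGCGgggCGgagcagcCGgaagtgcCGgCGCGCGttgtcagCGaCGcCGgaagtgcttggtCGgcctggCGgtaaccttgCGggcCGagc
Atf2: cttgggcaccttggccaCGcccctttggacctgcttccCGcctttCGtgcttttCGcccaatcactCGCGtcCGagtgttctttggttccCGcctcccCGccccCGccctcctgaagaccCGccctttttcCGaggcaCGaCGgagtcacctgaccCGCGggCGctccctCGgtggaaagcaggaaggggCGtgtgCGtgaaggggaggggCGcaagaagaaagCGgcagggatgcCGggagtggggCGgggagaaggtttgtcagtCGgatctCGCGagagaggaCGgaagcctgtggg

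All 8 genes matched a RefSeq promoter, Chn1 with 2 entries. The number of CpG dinucleotides was 16 for Evx2, 25 for Lnp, 19 for Mtx2 and 28 for Atf2. It was 44 for Hnrnpa3, 32 for Agps, 18 for Nfe2l2, and 43 and 5 for the entries of Chn1. Over 32851 promoters of the same length the median was 7, with quartiles of 3 and 20. The Evx2 promoter held 1 TATAAA, the Lnp promoter 2 CCAAT and 1 GGGCGG, the Mtx2 promoter 1 GGGCGG, and the Atf2 promoter 1 CCAAT and 4 GGGCGG, searched on both strands. Of all promoters, 13.6% held TATAAA, 37.4% CCAAT and 35.7% GGGCGG. These matches describe the letters only.

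Total counts per library ran from 14777833 to 19733288 in controls and from 14721181 to 17034741 in mutants. Embryos came from 4 litters, called A to D, each with both genotypes. Controls 1 and 2 shared litter A with mutants 1 and 2. Mutant 6 was a littermate of control 3 (B), and mutant 5 of control 4 (C). Control 5 had mutants 3 and 4 as littermates (D). In CPM (counts scaled to the library total), control libraries had 179.6 ± 40.2 of Gmnn (SD, n = 5) and mutant libraries 115.3 ± 16.1 (SD, n = 6), without overlap, so that most of the transcript was still counted in mutants. The limb mesenchyme markers Prrx1 (198.6 to 312.8 CPM) and Tbx5 (64.8 to 122.9 CPM, a forelimb gene) were high in every library, and the hindlimb genes Tbx4 and Pitx1 stayed at or below 6.11 CPM. Red blood cell genes summed to 9380 to 23454 CPM in controls and 11532 to 40436 CPM in mutants. Mutant 5 stood apart in having 8 Xist reads and 4 reads of 4 Y-linked genes, whereas each other library had at least 939 reads of one or the other. Control 5 stood apart in the 5′ HoxD genes, with a mean log2 CPM of Hoxd10 to Hoxd13 of 2.35, against 4.37 to 5.42 in the other controls. The low mean came from Hoxd11, Hoxd12 and Hoxd13 (3.36, 0.350 and 3.15 CPM), whereas Hoxd10, at 124.5 CPM, exceeded the 87.2 to 120.1 CPM of controls 1 to 4.

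**Figure D1:**
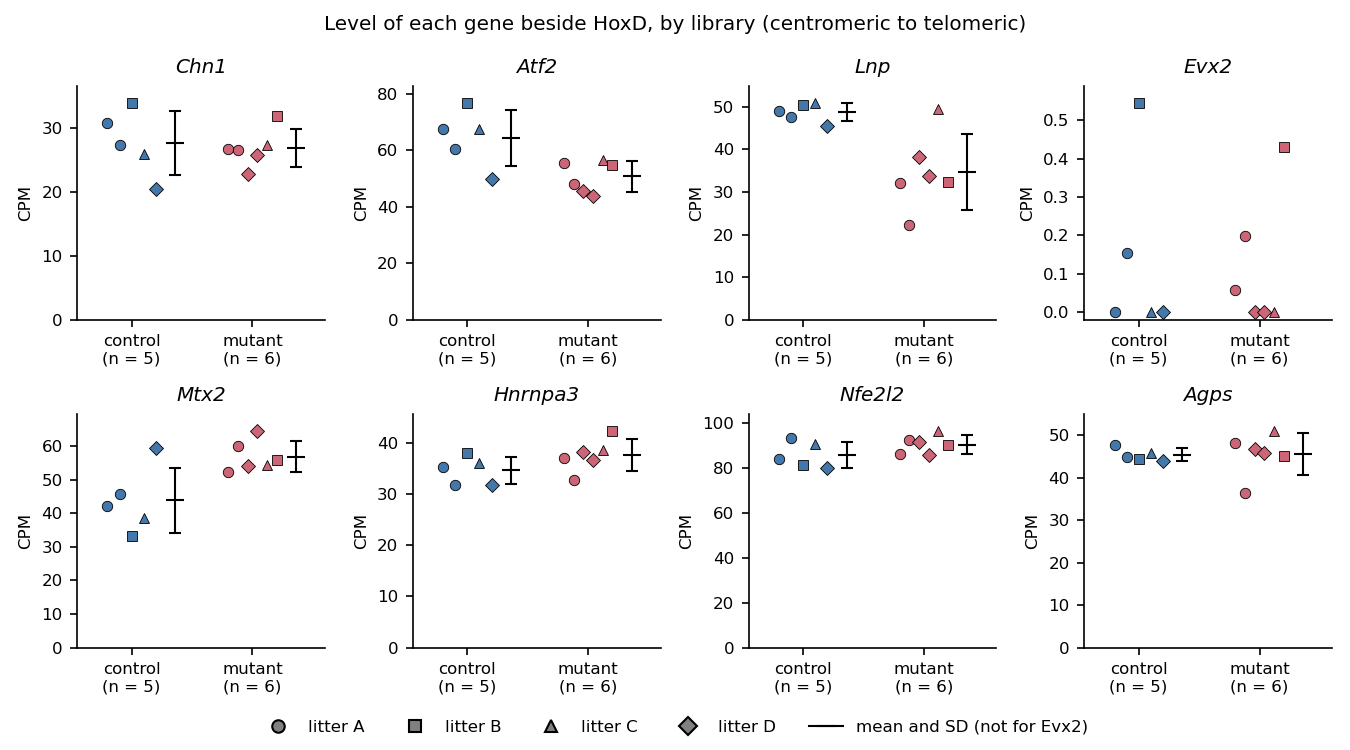
Level in CPM (vertical axis) of each flanking gene in the 5 control and 6 mutant libraries, with 1 point per library, the symbol giving the litter, and the bar the mean and SD. Lnp and Atf2 sit lower and Mtx2 higher in most mutants, every panel has overlapping groups, and the 2 highest Evx2 values are both from litter B.

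The flanking genes spanned a wide range of levels per length in control buds. As RPKM (CPM per kilobase of exon), the order was Nfe2l2 (22.6 ± 1.55), Mtx2 (11.9 ± 2.67), Atf2 (7.88 ± 1.22), Hnrnpa3 (6.42 ± 0.505), Chn1 (5.37 ± 0.985), Lnp (5.32 ± 0.234), Agps (4.82 ± 0.158) and Evx2 (0.0334), each SD with n = 5. Neighbours in this order whose mean ± SD overlapped were Atf2 and Hnrnpa3, Hnrnpa3 and Chn1, and Chn1 and Lnp. In mutants the same genes stood at 23.8, 15.5, 6.20, 6.97, 5.22, 3.79, 4.84 and 0.0273. Atf2 and Hnrnpa3 had thus exchanged places in the order of means, and Agps stood above Lnp. The level of Hnrnpa3 is uncertain, since it is known to have near-identical pseudogene copies and reads of low mapping quality were not counted.

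Across the 7 tested genes no difference between genotypes passed an adjusted p of 0.05 (quasi-likelihood test of edgeR, litter as block). Over the whole table, 2.18% of the genes tested did so (345 in number). An unadjusted p under 0.05 was reached by 3 of the 7, namely Lnp, Atf2 and Mtx2, and by 21.4% of the whole table. With limma-voom 1 of the 7 passed the adjusted threshold, where 439 of all 15821 genes did. With DESeq2 3 of the 7 passed, where 1194 of all genes did. In none of the 7 were the groups free of overlap, which they were in 2.59% of all genes. The median log2 fold change was 0.01 over the 7 and 0.004 over all genes tested.

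Lnp, which encodes Lunapark, a protein of the three-way junctions of the endoplasmic reticulum, had the lowest p of the set. Its level was 49.1, 47.6, 50.4, 50.8 and 45.6 CPM in controls 1 to 5. Mutants 1 to 6 had 32.0, 22.3, 38.2, 33.7, 49.5 and 32.4 CPM. The controls lay close together, and 5 of 6 mutants lay below all of them, with mutant 5 among the controls. The means were 48.7 ± 2.14 CPM (SD, n = 5) and 34.7 ± 8.94 CPM (SD, n = 6), which gave a log2 fold change of -0.52 (SE 0.13, edgeR quasi-likelihood adjusted p 0.0534). In each of the 4 litters the mutant mean was the lower, with log2 differences of -0.85 (A), -0.64 (B), -0.04 (C) and -0.35 (D). Mutant 5, the library whose X and Y reads stood apart, is the mutant of litter C, and without it the log2 fold change was -0.64 (adjusted p 0.0543).

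Atf2, a leucine zipper transcription factor activated by stress kinases, was the other gene lower in each litter. It stood at 67.7, 60.5, 76.7, 67.7 and 49.96 CPM in controls 1 to 5 and at 55.7, 48.3, 45.7, 43.7, 56.5 and 54.8 CPM in mutants 1 to 6. The first 4 controls lay above every mutant, and control 5 lay among the mutants. Means were 64.5 ± 9.96 CPM (SD, n = 5) and 50.8 ± 5.57 CPM (SD, n = 6), with a log2 fold change of -0.29 (SE 0.07, edgeR quasi-likelihood adjusted p 0.0569). By litter the differences were -0.30, -0.48, -0.26 and -0.16 on the log2 scale.

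Mtx2, or metaxin 2, which takes part in protein import at the mitochondrial outer membrane, had the opposite sign. Its level was 42.2, 45.7, 33.3, 38.5 and 59.3 CPM in controls 1 to 5. Mutants 1 to 6 had 52.2, 60.1, 54.2, 64.5, 54.5 and 55.8 CPM. Again the first 4 controls lay on one side of every mutant, here below, and control 5 lay among the mutants. The means were 43.8 ± 9.82 CPM (SD, n = 5) and 56.9 ± 4.56 CPM (SD, n = 6), with a log2 fold change of 0.36 (SE 0.10, edgeR quasi-likelihood adjusted p 0.0787). The log2 difference was 0.35 in litter A, 0.74 in B, 0.50 in C and -0.01 in D.

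These 3 genes lay close to the threshold, and the side they fell on changed with control 5 and with the method. Without control 5, edgeR's quasi-likelihood adjusted p was 0.0475 for Lnp, 0.0434 for Atf2 and 0.0266 for Mtx2, with log2 fold changes of -0.58, -0.34 and 0.49. The same fit called 846 genes in the whole table. With control 5 kept, all 3 passed with DESeq2 and without a filter on low counts, Lnp and Atf2 with a filter of 1 CPM, and Lnp alone with RLE scaling or limma-voom. In the whole table DESeq2 called 1194 genes, and the fit without a filter 1566 of 29256. The 1 CPM filter gave 550 of 13403, RLE scaling 390 and limma-voom 439. The 3 genes also moved with a library measure, the T-run index, which is the mean log2 CPM of 975 genes whose transcripts hold at least 18 T in a row. It ran from 4.45, in control 5, to 4.82 in controls and from 4.26, in mutant 2, to 4.64, in mutant 5, in mutants. In each litter every mutant had a lower index than its control littermates, so index and genotype are confounded here. With this index as a covariate the log2 fold changes were -0.07 for Lnp (edgeR adjusted p 0.890), -0.14 for Atf2 (0.644) and 0.16 for Mtx2 (0.743). In that fit 2 genes passed in the whole table, and the differences cannot be assigned to the index or to genotype. None of the 3 belongs to the index: their longest T runs are 16, 13 and 7 bases. What the index stands for in the embryos or the libraries was not tested.

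The other 4 tested genes differed little between genotypes. Hnrnpa3, an RNA-binding protein of messenger RNA processing, ranged from 31.8 to 38.1 CPM in controls and from 32.7 to 42.3 CPM in mutants (log2 fold change 0.13, SE 0.07, edgeR adjusted p 0.356). Nfe2l2, the transcription factor NRF2 of the oxidative stress response, ranged from 80.2 to 93.5 CPM in controls and from 85.7 to 96.6 CPM in mutants (log2 fold change 0.09, SE 0.06, adjusted p 0.481). In both, each litter had the higher mean in mutants, with log2 differences of 0.05 to 0.24 and of 0.01 to 0.15. Chn1, a Rac GTPase-activating protein that acts downstream of ephrin receptors in axon guidance, ranged from 20.5 to 33.9 CPM in controls and from 22.8 to 31.9 CPM in mutants (log2 fold change 0.01, SE 0.09, adjusted p 0.962). Agps, the peroxisomal enzyme that forms the ether bond of ether lipids, ranged from 44.1 to 47.8 CPM in controls and from 36.5 to 51.0 CPM in mutants (log2 fold change 0.002, SE 0.09, adjusted p 0.995). The lowest Agps value was that of mutant 2, which was also lowest in Lnp.

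**Figure D2:**
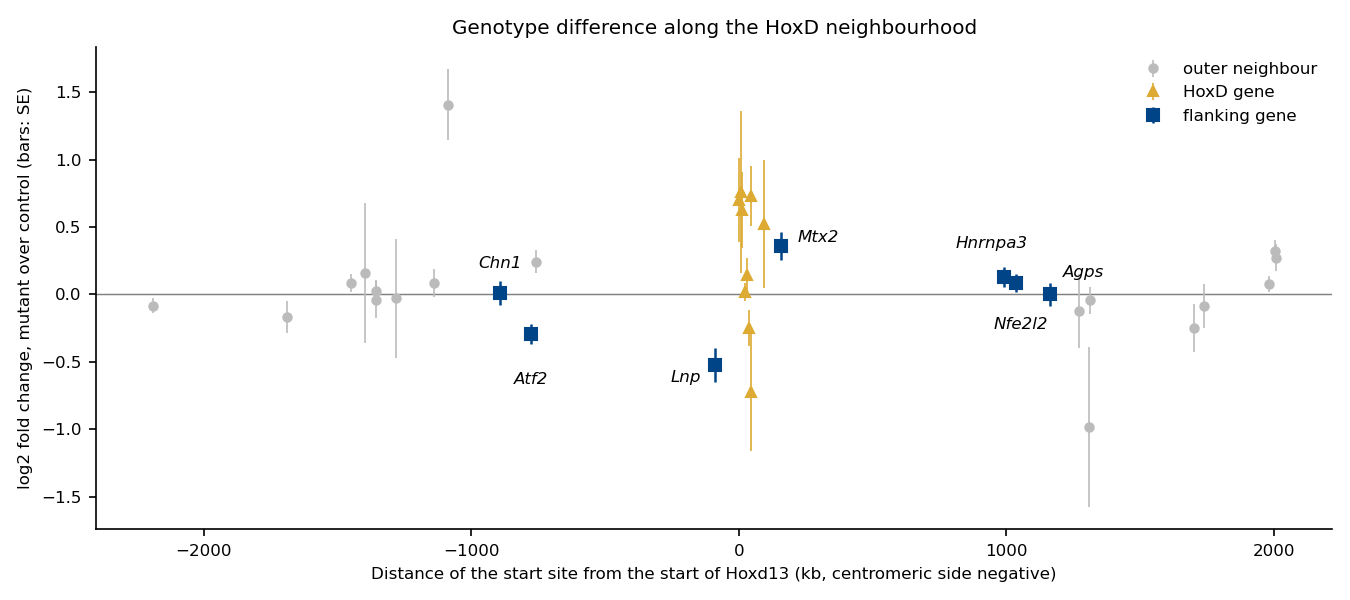
Log2 fold change of mutant over control (vertical axis, bars SE) against the distance in kb of each start site from that of Hoxd13 for the 7 tested flanking genes, the 9 HoxD genes and 18 outer neighbours. Lnp and Mtx2, on either side of the cluster, lie below and above 0, Atf2 lies below 0 at -775.7 kb, and the 4 remaining flanking genes lie within 0.13 of 0.

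Evx2, a homeobox gene next to Hoxd13, was near the limit of detection. Its read count was 0, 3, 10, 0 and 0 in controls 1 to 5 and 1, 3, 0, 0, 0 and 7 in mutants 1 to 6. The reads were not split by genotype but lay mostly in litter B, in control 3 and mutant 6. Pooled over libraries there were 13 reads in controls, or 0.149 CPM (exact Poisson 95% interval 0.0794 to 0.255), and 11 in mutants, or 0.116 CPM (0.0578 to 0.207). The 2 libraries of litter B held 17 of the 24 reads, or 0.491 CPM (0.286 to 0.786), and the other 9 libraries held 7, or 0.0474 CPM (0.0191 to 0.0978). A count of 0 allows up to 0.168 to 0.210 CPM in the libraries with none, controls 1, 4 and 5 and mutants 3 to 5, taking 3 reads as the limit. These intervals cover counting error only. Litter B was set apart because its counts were highest, so the gap between its interval and that of the others is not a test. The paralogue of Evx2 beside HoxA, Evx1, had 58 reads in control 3 and 25 in mutant 6, against 0 to 23 in the others. Hoxd13 was also highest in control 3 (35.98 CPM). In mutant 6 it stood at 28.3 CPM, below the 29.2 CPM of mutant 1, which had 1 Evx2 read.

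The HoxD genes themselves gave no call between genotypes. The 5′ genes Hoxd13, Hoxd12, Hoxd11 and Hoxd10 had log2 fold changes of 0.70, 0.76, 0.62 and 0.02, with edgeR adjusted p of 0.224, 0.506, 0.228 and 0.911. The 3′ genes Hoxd9, Hoxd8, Hoxd4, Hoxd3 and Hoxd1 had 0.15, -0.25, 0.73, -0.73 and 0.52, with adjusted p of 0.546, 0.307, 0.0944, 0.364 and 0.571. Lnp, the nearest tested neighbour on the 5′ side, thus had the opposite sign to the 5′ genes in this fit. By litter, the sign of the 5′ genes was mixed. Hoxd11, Hoxd12 and Hoxd13 had log2 differences of 0.69, 1.23 and 0.77 in litter A and 1.92, 3.28 and 1.81 in D. The values were 0.23, -0.13 and -0.34 in B and -0.34, -1.01 and 0.39 in C. Hoxd10 ran from -0.11 in A to 0.18 in D. The opposite sign to Lnp was therefore not seen in every litter. Mtx2 had the same sign as Hoxd1, the nearest gene on its side. None of these HoxD genes passed the threshold. At an unadjusted p under 0.05 there were 3 of the 9, namely Hoxd13, Hoxd11 and Hoxd4, beside 21.4% of all genes.

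Litters were compared in the same fit. No flanking gene passed an adjusted p of 0.05 for litter (edgeR quasi-likelihood test of 3 coefficients), where 14 genes or 0.0885% of the table did, Hoxd9 and Hoxd10 among them (0.0498 each). At an unadjusted p under 0.05 there were 2 of the 7, Atf2 and Chn1, against 13.5% of all genes. Their adjusted p for litter were 0.221 and 0.258. Chn1 was highest in both libraries of litter B, at 33.9 and 31.9 CPM, and lowest in litter D, at 20.5, 22.8 and 25.7 CPM. Hoxd9 ran the other way, with 22.0 and 33.7 CPM in litter B and 84.5, 69.8 and 84.4 CPM in litter D. The genotype difference was not shown to vary with litter for any flanking gene: the lowest interaction p was 0.0868, in Mtx2, with an adjusted p of 0.950 and 3 residual degrees of freedom.

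To ask whether the flanking genes follow HoxD from library to library, each was correlated with the mean log2 CPM of Hoxd10 to Hoxd13 and with that of the 3′ genes Hoxd1, Hoxd3, Hoxd4, Hoxd8 and Hoxd9. That mean was 4.68, 4.37, 5.42, 4.91 and 2.35 in controls 1 to 5 and 5.30, 5.03, 4.91, 3.38, 4.67 and 5.37 in mutants 1 to 6 for the 5′ genes. For the 3′ genes it was 2.27, 2.48, 1.45, 2.43 and 3.56 in controls and 2.19, 2.56, 2.88, 3.35, 2.60 and 2.49 in mutants. Control 5 and mutant 4, both of litter D, were lowest in the former and highest in the latter. Within the 5′ group, Hoxd10 ran against Hoxd11, Hoxd12 and Hoxd13 over the libraries (r -0.60, -0.65 and -0.64, as a description). With the 5′ genes no member passed after adjustment over the 14 pairs. The highest was Chn1 (r 0.688, rho 0.564, permutation p 0.0207, adjusted 0.0723), followed by Hnrnpa3 (r 0.550, rho 0.555, adjusted permutation p 0.234). Lnp had r -0.167 and rho -0.164 (adjusted permutation p 0.791), so no relation of Lnp with the 5′ genes was detectable over these 11 libraries. Mtx2, Atf2, Nfe2l2 and Agps had r of -0.454, 0.439, 0.380 and 0.012. An r of at least 0.6 in size was reached by 1 of the 7 and by 14.9% of all genes.

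With the 3′ HoxD genes 3 members passed, 1 with them and 2 against them. This permutation exchanged all 11 libraries freely, so it took littermates as independent and ignored genotype. Mtx2 was higher where the 3′ genes were higher (r 0.785, rho 0.809, permutation p 0.00335, adjusted 0.0178). Atf2 was lower (r -0.802, rho -0.800, permutation p 0.00246, adjusted 0.0178), and so was Chn1 (r -0.814, rho -0.700, permutation p 0.00381, adjusted 0.0178). For the ranks, the adjusted permutation p was 0.0335, 0.0335 and 0.0949. An r of at least 0.6 in size with the same mean was reached by 3 of the 7 and by 23.6% of all genes, so such an r is common in this table. At the r of the members themselves the shares count 1 direction only, so they are not on the scale of the 23.6%, which counts both. Of all genes, 96.5% had a lower r than Mtx2, 2.32% a lower r than Atf2 and 1.95% a lower r than Chn1. Lnp (r -0.180), Hnrnpa3 (-0.307), Agps (-0.043) and Nfe2l2 (0.006) did not pass. Within litters, r was 0.750 for Mtx2, -0.578 for Atf2 and -0.307 for Chn1 (exact permutation p 0.0677, 0.302 and 0.453, adjusted 0.698, 0.698 and 0.705). With libraries exchanged only within litters, none of the 3 thus passed. Without controls 3 and 5, the libraries farthest from the median, r was 0.621, -0.768 and -0.489 (exact permutation p 0.0701, 0.00877 and 0.186, adjusted 0.393, 0.123 and 0.521). After removal of these 2 libraries none of the 3 relations passed with 9 libraries left. The r of Atf2 was almost as large as before, and that of Chn1 was the most reduced. Without control 3 alone none passed either. After both litter and genotype were removed, r was 0.963 for Mtx2, -0.860 for Atf2 and -0.331 for Chn1. With the 5′ genes the values so treated gave -0.891, 0.598 and 0.143. These r have no p-value and rest on few free values, since in litters B and C, with a single pair each, the remainders mirror each other. The 3′ mean weighs Hoxd1, Hoxd3 and Hoxd4 (206, 130 and 517 reads) like Hoxd8 (13668 reads). With summed 3′ reads in its place, r was 0.496 for Mtx2, -0.540 for Atf2 and -0.733 for Chn1. None of these passed (adjusted permutation p 0.430, 0.408 and 0.0647). With Hoxd8 alone, r was 0.125, -0.153 and -0.471.

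**Figure D3:**
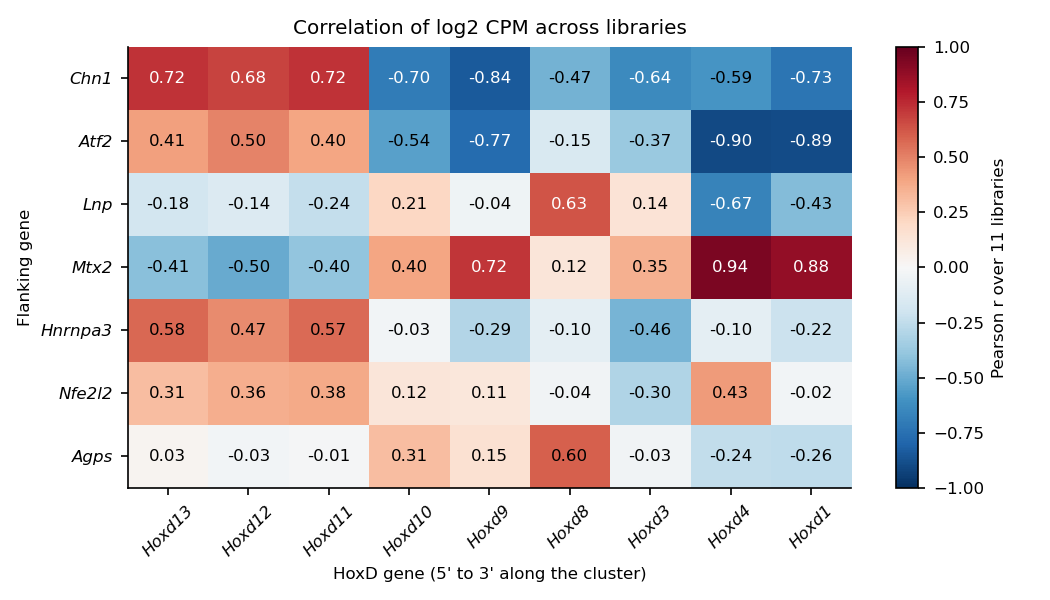
Pearson r of log2 CPM over 11 libraries between each tested flanking gene (rows, centromeric to telomeric) and each HoxD gene (columns, 5′ to 3′), with red for positive and blue for negative values. Atf2 and Mtx2 have opposite colours in all 9 columns, and Chn1 changes sign between Hoxd11 and Hoxd10.

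Single HoxD genes behaved unlike one another, so the means hide some detail. Of 63 pairs of a flanking gene with a HoxD gene, 5 passed after adjustment over the 63, again with libraries exchanged across litters. How many of all genes are as closely related to a single HoxD gene was not counted. With the mean of the 3′ genes, 23.6% of all genes reached an r of at least 0.6 in size. Mtx2 rose with Hoxd4 (r 0.940, rho 0.909, adjusted permutation p 0.00252) and Hoxd1 (r 0.879, rho 0.900, 0.00488), whereas Atf2 fell with Hoxd4 (r -0.904, rho -0.873, 0.00346) and Hoxd1 (r -0.892, rho -0.909, 0.00488). Chn1 and Hoxd9 gave r -0.837 and rho -0.836 (adjusted permutation p 0.0209). Within litters r was 0.960 and 0.873 for Mtx2 with Hoxd4 and Hoxd1, -0.977 and -0.772 for Atf2 with the same genes, and -0.068 for Chn1 with Hoxd9. Without the 2 libraries farthest in the HoxD gene, the adjusted exact permutation p was 0.0510 for both Mtx2 pairs, 0.0899 for Atf2 with Hoxd4 and for Chn1 with Hoxd9, and 0.00208 for Atf2 with Hoxd1. Hoxd4 had 517 reads and Hoxd1 206 in all libraries together. In Hoxd4, 52.3% of exon bases are shared with other genes.

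Among the flanking genes, 1 of 21 pairs passed, with libraries exchanged across litters. The share over pairs of other genes was not counted. Mtx2 and Atf2, which lie on opposite sides of the cluster, were opposed (r -0.941, rho -0.882, permutation p 2.0e-05, adjusted 0.00042). Within litters r was -0.936, and without control 3 and mutant 4 it was -0.886 (adjusted exact permutation p 0.0283). Lnp had r 0.638 with Atf2 and -0.643 with Mtx2 (rho 0.727 and -0.700, adjusted permutation p 0.185 for each). Neither passed. The same 3 genes were those that tracked the T-run index. Over 9 relations with it, r was 0.922 for Atf2 (rho 0.955, adjusted permutation p 0.00063), -0.868 for Mtx2 (rho -0.864, 0.00148) and 0.828 for Lnp (rho 0.782, 0.00546). Within litters r was 0.912, -0.816 and 0.958, values that still hold the genotype difference, since the index was lower in the mutants of each litter. Without control 1 and mutant 2, the libraries farthest in the index, r was 0.952, -0.888 and 0.735 (adjusted exact permutation p 4.96e-05, 0.00228 and 0.0756), so that of Lnp no longer passed. Of all genes, 33.0% had an r of at least 0.6 in size with the index. The mean of the 3′ HoxD genes had r -0.604 and rho -0.700 with it (adjusted permutation p 0.105), and the other 4 flanking genes had r of -0.127 to 0.548, of which none passed.

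**Figure D4:**
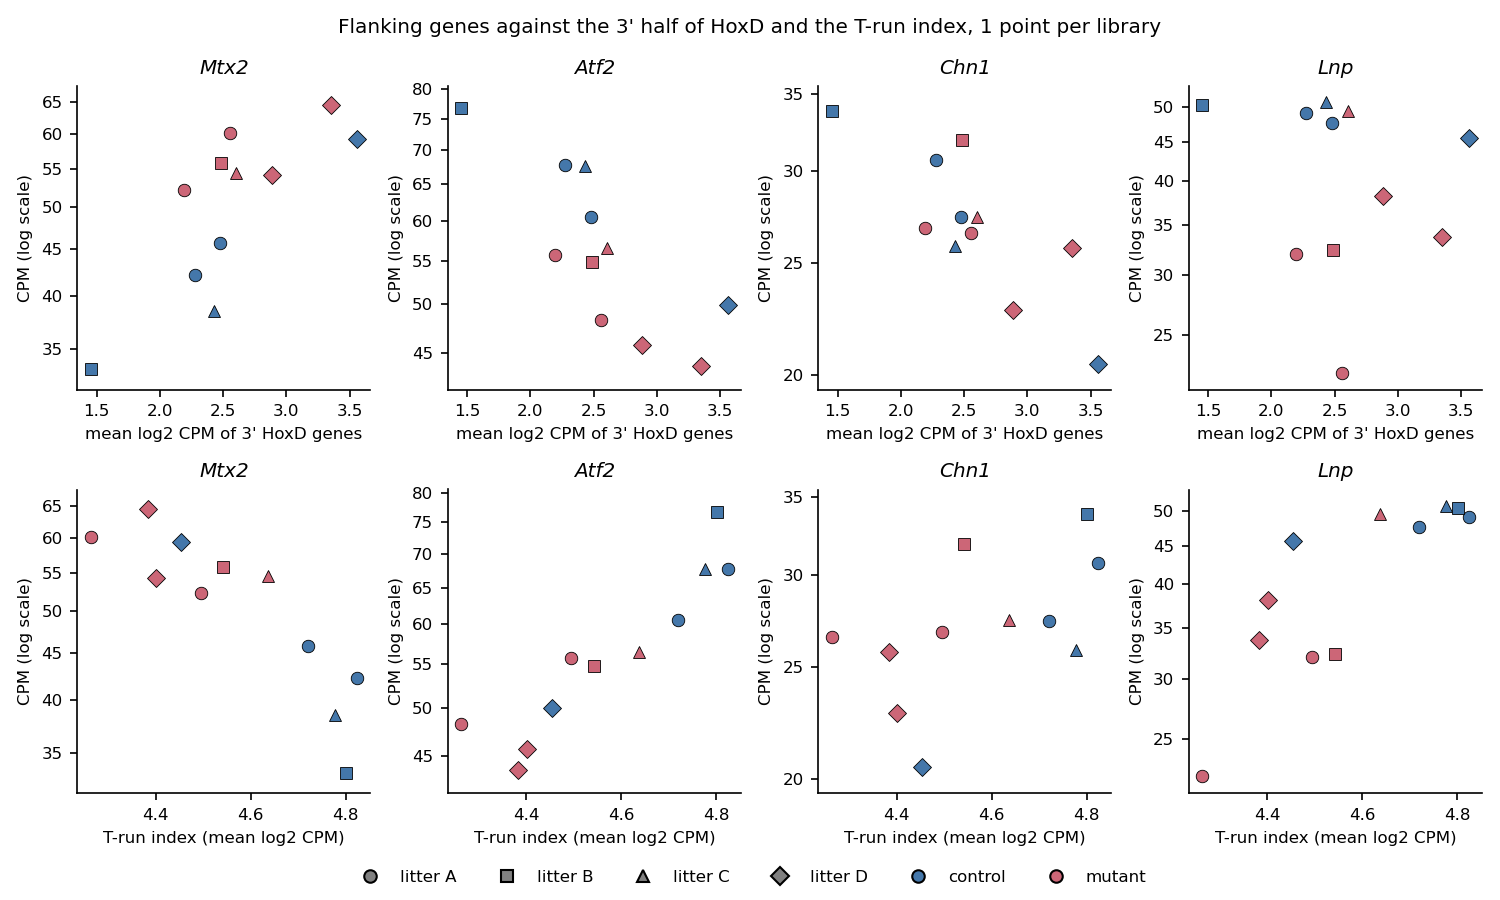
CPM (vertical, log scale) of Mtx2, Atf2, Chn1 and Lnp against the mean log2 CPM of the 3′ HoxD genes (upper row) and against the T-run index (lower row), 1 point per library, with colour for genotype and symbol for litter. Mtx2 and Atf2 run in opposite directions in both rows, and control 5 (the blue diamond) lies near the mutants of its litter for Mtx2 and Atf2 and near the other controls for Lnp.

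The genes whose course over the libraries was most like each member, by Pearson r among 9612 genes of at least 5 CPM on average, were different for each. For Lnp they were Tspan12 (r 0.974), Efna5 (0.969) and Ptcd3 (0.968), and for Atf2 Zfp652 (0.976), Plekho2 (0.973) and Inafm2 (0.971). For Mtx2 they were Ybx3 (0.981), Slc25a1 (0.961) and Hsp90aa1 (0.960). Chn1 ran most like Zfp827 (0.972), Spsb1 (0.965) and Pik3ca (0.950), and Hnrnpa3 most like Cand1 (0.958), Fat1 (0.937) and N4bp2 (0.930). The likeness was lower for Agps, with Pom121 (0.928), Prrc2a (0.902) and Eif2ak4 (0.895), and for Nfe2l2, with Ano1 (0.860), Frrs1 (0.845) and Hus1 (0.829). These are the top of a large search and have no p-value.

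Further out on chromosome 2, 18 of 19 neighbours beyond the set were tested, and 1 rose and none fell. That gene was Chrna1, a muscle acetylcholine receptor subunit at 73563215 to 73580338 on the minus strand, centromeric of Chn1, with 3.63 ± 1.16 CPM in controls (SD, n = 5) and 9.73 ± 4.50 CPM in mutants (SD, n = 6). This was a log2 fold change of 1.41 (SE 0.26, edgeR quasi-likelihood adjusted p 0.0390). The median over the 18 was -0.003. Genes of migrating muscle precursors, as a list of 5, summed to 41.7 to 78.9 CPM in controls and 37.5 to 73.1 CPM in mutants. The sums are mostly Pax3, and the median log2 fold change of the 5 was -1.25, opposite in sign to Chrna1. Myf5, Myod1 and Myog, genes of muscle commitment, had -1.25, -2.10 and -1.76, and Pax3 and Lbx1, genes of the migrating precursors, 0.30 and 0.82, and none passed (edgeR adjusted p 0.0696 to 0.307). Their part in the Chrna1 difference was not tested. Of 5 genes beside HoxA, 2 were lower at an unadjusted p under 0.05, as were 1824 of all 15821 genes. Of the 5, 0 passed, with a median of -0.11. The lowest p was that of Snx10, an endosomal sorting protein (log2 fold change -0.23, adjusted p 0.200).

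Known partners of the flanking genes gave 4 further calls, all higher in mutants. Of 7 genes that shape the endoplasmic reticulum, as Lnp does, 1 rose, Reep5 (88.1 ± 10.2 to 112.7 ± 12.4 CPM, log2 fold change 0.32, edgeR adjusted p 0.0462), with a median of 0.10 over the list. Of 10 genes of mitochondrial outer membrane import, the process of Mtx2, 1 rose, the receptor gene Tomm70a (91.5 ± 11.1 to 116.8 ± 11.99 CPM, log2 fold change 0.32, adjusted p 0.0457). All 10 had a fold change above 0, with a median of 0.17, and 4 were under an unadjusted p of 0.05. Of all 15821 genes, 8022 were above 0 and 21.4% were under that p, and the list as a whole was not tested. Of 6 relatives of Hnrnpa3, 1 rose, Hnrnpd (253.8 ± 16.7 to 313.8 ± 17.9 CPM, log2 fold change 0.30, adjusted p 0.0406), and the median was -0.05. Of 6 genes of ephrin and Rac signalling, the field of Chn1, 1 rose, the GTPase gene Rac1 (77.0 ± 3.99 to 93.2 ± 5.71 CPM, log2 fold change 0.27, adjusted p 0.0464), and the median was 0.003.

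In the remaining lists no gene passed. They were 12 relatives, dimer partners and kinases of Atf2 (median -0.02, lowest p in the kinase gene Mapk14, log2 fold change 0.17, edgeR adjusted p 0.165) and 6 ether lipid genes around Agps (median 0.005, lowest p in the reductase gene Far1, -0.26, 0.0952). There were also 4 regulators of Nfe2l2 (median -0.18, lowest p in the small Maf gene Mafg, -0.31, 0.0918) and 10 Nfe2l2 target genes (median 0.10, lowest p in malic enzyme Me1, 0.36, 0.379). At an unadjusted p under 0.05 these lists held 1, 1, 1 and 0 genes, beside 21.4% of all genes. In all, 5 of 84 tested neighbours and partners passed, or 5.95%, beside 2.18% of all genes. The count was 5 with limma-voom, where 439 of all genes passed, and 12 with DESeq2, where 1194 did. It was 0 when the T-run index, lower in the mutants of each litter, entered the model. Leaving out single libraries gave 0 in 9 of 11 cases, the exceptions being the fits without control 5 (9 genes) and mutant 2 (5 genes). Over the whole table the count was as unstable, from 1 gene without control 4 to 846 without control 5.

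**Figure D5:**
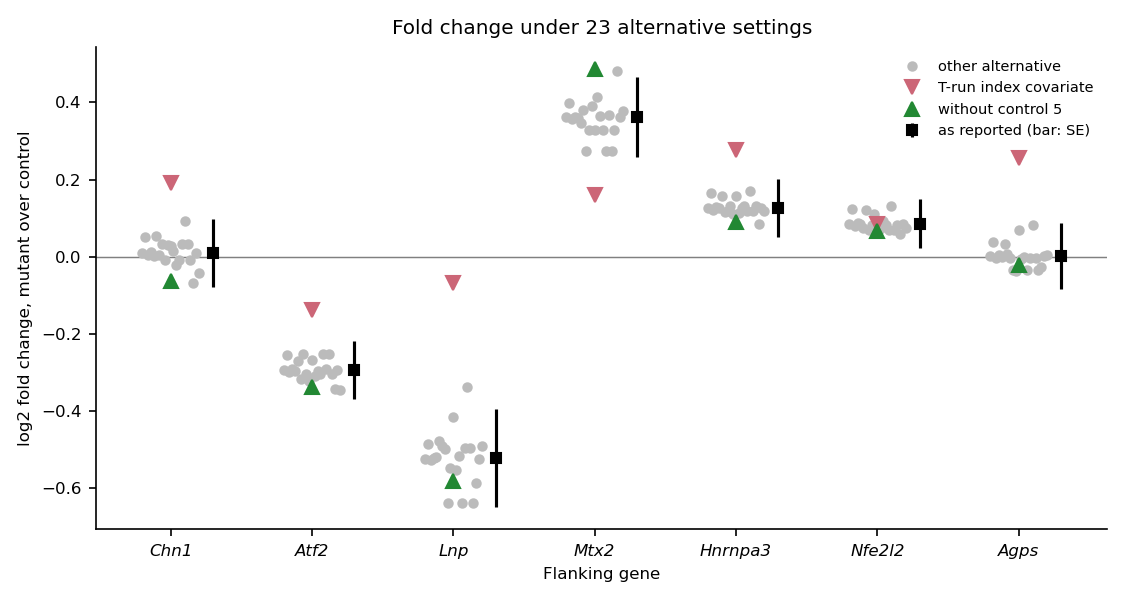
Log2 fold change of mutant over control (vertical axis) for the 7 tested flanking genes as reported (square, bar SE) and under 23 other settings (1 point each), with the fits without control 5 and with the T-run index marked. Lnp, Atf2 and Mtx2 keep their sign throughout and come nearest to 0 with the index, whereas Chn1 and Agps lie on both sides of 0.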

How the data were processed

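RNA-seq was used on 11 libraries of E10.5 mouse forelimb buds. The deposited values are raw read counts for each gene name, made by the authors using featureCounts 1.4.6-p4, per the file headers, with a mapping quality of at least 10 and no strand option. The submitters' processing notes name STAR 2.5.4b and mm10. The 8 genes were matched on the gene name. The series describes 6 pairs matched by litter. The table used here has 11 sample columns.

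The main test was edgeR 4.0.16's quasi-likelihood F test in R 4.3.3, on 15821 genes kept by filterByExpr (99.9% of counts), with TMM scaling, litter as a block and genotype. P-values were two-sided, adjusted by Benjamini-Hochberg over all genes tested, with a threshold of 0.05. Each title gives a litter and a number within it, and the samples were taken as separate embryos. The p-values of the fits rest on the spread between samples left after litter and genotype, and those of the correlations on permutation. CPM use TMM-scaled totals, and log2 CPM a prior count of 2. Reads per kilobase used the exon length in the file. The biological coefficient of variation was 16.3%. On simulated data for this comparison (15821 genes), 97 of 100 changes of 1 and 53 of 100 of 0.5 on the log2 scale were called, with 8 false calls. The simulation held no litter effect and no library effect such as that of the T-run index. Its changes were placed only in better expressed genes, so these rates need not hold for the real libraries. Correlations used log2 CPM over 11 libraries with 100000 resamples, or exact permutation within litters (576 arrangements) and with 9 libraries. Except within litters, libraries were exchanged freely across litters and genotypes, so these p-values take littermates as independent.

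Litter was the block because the titles give it and the design text names litter matching. Deviations from group means correlated from -0.16 to 0.37 (median 0.13) over 8 same-litter pairs and from -0.33 to 0.17 (median -0.02) over 22 others, across genes, which are not independent. No libraries of a group were alike within sampling noise (over 25 pairs, chi-square divided by its degrees of freedom was at least 7.38).

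The 8 genes, the lists and the settings were chosen with earlier results of these data known. The pairs with single HoxD genes, the pairs among flanking genes and the relations with the T-run index were added after the other values were seen. All 8 genes and the HoxD genes were named. From each list, genes past the threshold were named (up to 4), or else the gene with the lowest p, and the 3 genes most like each member, without predicted, Xist and Y-linked genes. Alternatives were no filter, a filter of 1 CPM in 5 libraries, RLE or upper-quartile scaling, limma-voom 3.58.1, DESeq2 1.42.0, a T-run index covariate, no litter block, and each library or litter left out.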

Additional observations from a re-analysis of the deposited data

Results flagged for a closer look

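In 20 groups of libraries compared for a single far value (10 measures, 2 groups each), 2 had one, where chance gives about 1. Evx2 was highest in control 3, at 0.545 CPM, with the other controls at 0 to 0.154 CPM. This rests on 10 reads, and mutant 6 of the same litter had 7. The mean log2 CPM of the 5′ HoxD genes was lowest in mutant 4, at 3.38, with the other mutants at 4.67 to 5.37. Mutant 4 belongs to litter D, whose control 5 had the lowest mean of all libraries, 2.35.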

How the results depend on the processing

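The number of flanking genes called between genotypes, 0 as reported, was 1 with RLE scaling and with limma-voom, 2 with the filter of 1 CPM, 3 without a filter and with DESeq2, and 0 to 3 over the fits that left out 1 library. It was 3 without control 5 and 0 without any other. The settings with more flanking genes called also called more of the whole table than the 345 as reported. That number was 390 with RLE scaling, 439 with limma-voom, 550 with the filter of 1 CPM and 1566 without a filter. With DESeq2 it was 1194, and without control 5 it was 846. In the fit with no replicate block, without the litter term, the number of flanking genes called was 0. The log2 fold changes were -0.49 for Lnp, -0.35 for Atf2 and 0.38 for Mtx2. Dropping the block changed no call of a flanking gene, but that fit called only 13 genes in the whole table, against 345 with the block. Over 23 settings Lnp ran from -0.64 to -0.07, Atf2 from -0.35 to -0.14 and Mtx2 from 0.16 to 0.49, and the adjusted p of Lnp from 1.62e-05 to 0.890. Lnp was called in 6 of the 23, Atf2 in 4 and Mtx2 in 3. Hnrnpa3 and Nfe2l2 kept their sign and gained no call. Chn1 changed sign without litter C (-0.0080), without litter D (-0.069), with no replicate block (-0.043) and when single libraries were left out (-0.063 to 0.054). Agps did so without a filter (-0.0035), with limma-voom (-0.0017), without litters B (-0.0039), C (-0.035) and D (-0.027), and over single libraries left out (-0.038 to 0.070). For litter, the number called was 1 without a filter, in place of 0.

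Neighbours and partners called, 5 as reported, were 12 without a filter and with DESeq2, 0 with the T-run index, with no replicate block and without litter A, B or C, 1 without litter D, and 0 to 9 with single libraries left out. Members correlated with HoxD, 3 as reported, were 1 with summed HoxD reads (Hnrnpa3 with the 5′ genes, r 0.816), 0 with litter-centred values, 0 without the 2 farthest libraries, and 0 to 4 with single libraries left out, the 0 without control 3. The causes were not tested. The count of all genes called ran from 1, without control 4, mutant 5 or litter C, to 1566 of 29256 genes without a filter. Depth limits Evx2, Hoxd1, Hoxd3 and Hoxd4, whereas tested flanking genes were at 20.5 CPM or more in every library.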
